A study of Mus musculus with 6 samples.

Results

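Purinergic signalling was described here through 10 genes, 8 receptors and 2 enzymes, in cells grown from mouse embryonic stem cells (ESCs) that lacked intact Gata3 (Gata3-/-, 3 arrays) or kept 1 intact copy (Gata3+/-, 3 arrays). GATA3 is a transcription factor of early T-cell development. Cells of both genotypes were derived on OP9 and OP9-DL1 stroma, the second of which carries a Notch ligand, with IL-7 and Flt3L added, and were sorted as T-cell progenitors before hybridisation to Affymetrix arrays. The labels call the replicates biological without naming separate cultures or clones, and they give neither the disrupted part of Gata3 nor the surface markers of the sort. P-values thus cover only the spread among these 6 arrays. The members P2ry1, P2ry6, P2ry10, P2ry12, P2ry13, P2ry14, P2rx4, P2rx7, Entpd1 and Nt5e are 10 of the 10302 genes tested. They were named with earlier results of these arrays known, and the probe set for each gene was chosen by its highest mean over the 6 arrays. The count of members past a threshold is therefore a description and not independent evidence about the family.

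Cells release ATP, ADP, UDP and UDP-sugars when they are stressed, damaged or activated, and purinergic receptors on neighbouring cells read these nucleotides. The P2ry genes encode G protein-coupled receptors, and the P2rx genes encode cation channels opened by ATP. On the cell surface the enzyme encoded by Entpd1 (CD39) removes phosphates from ATP and ADP to leave AMP, and the enzyme encoded by Nt5e (CD73) turns AMP into adenosine, which acts on receptors of its own. In blood cells these genes are known from platelets, microglia, macrophages, dendritic cells and lymphocytes.

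Expression moved in both directions within the family. P2ry10, the receptor of lymphoid cells that responds to lysophosphatidylserine, rose 6.89-fold in Gata3-/- arrays, and P2ry14, the receptor for UDP-sugars, rose 1.49-fold. P2rx7, the ATP-gated channel that triggers inflammasome activation, fell 2.08-fold. The other 7 members did not pass the threshold, an adjusted p of 0.05 over all 20102 probe sets tested with limma. The 3 members called compare with 5.27% of all genes called (543 of 10302), of which 2.86% were higher and 2.41% lower in Gata3-/- arrays. Because the members were named with these results known, nothing about the family is read from that share. The median difference of the 10 members was -0.44 on the log2 scale, with 4 positive and 6 negative, against a median of -0.02 over all genes. Values below are log2 GC-RMA intensities, an array's brightness after the authors' background correction and normalization, and differences are Gata3-/- minus Gata3+/- on that log2 scale. Probe sets differ in brightness for the same amount of RNA, so levels are compared between arrays and not between genes.

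**Figure D1:**
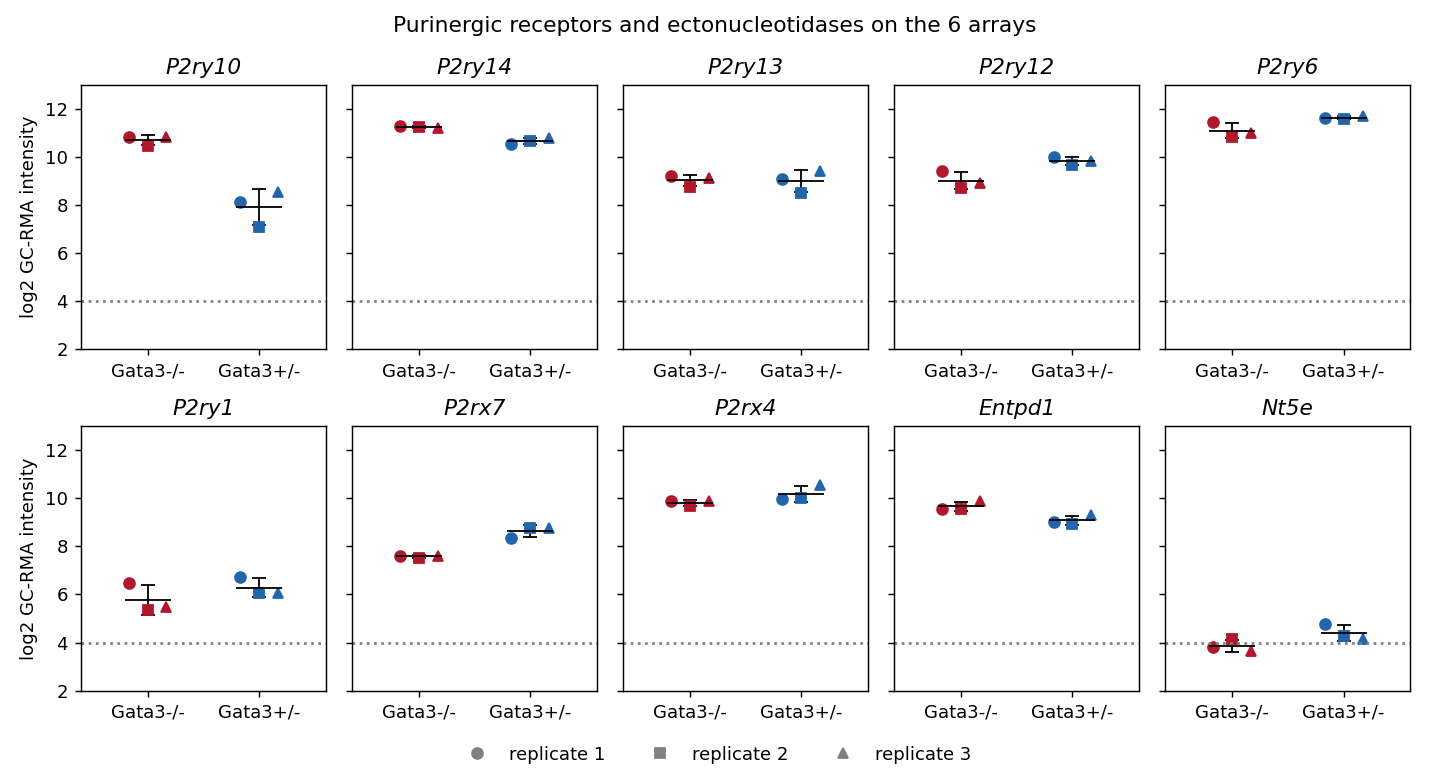
Log2 GC-RMA intensity of the chosen probe set of each of the 10 genes (y axis) on the 3 Gata3-/- arrays (red, left) and the 3 Gata3+/- arrays (blue, right); symbols give the replicate number, bars the mean and SD, and the dotted line the floor of 4. P2ry10 lies between 10.47 and 10.85 in Gata3-/- arrays and between 7.10 and 8.56 in Gata3+/- arrays, and Nt5e lies at the floor.

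The members were measured by 19 probe sets annotated to their symbol alone, and 0 probe sets named a member together with another gene. Of the 19, 14 were tested because they reached a log2 value of 4 on at least 3 arrays, and 5 never reached it on any array. Every member had at least 1 tested probe set, and for 9 of 10 the chosen probe set lay above 4 on all 6 arrays. The exception was Nt5e. It stood at 3.83, 4.15 and 3.65 in Gata3-/- arrays 1, 2 and 3, against 4.79, 4.28 and 4.15 in Gata3+/- arrays, so that the values nearest the floor were 4.15 inside and 3.83 outside. Its other probe sets, at 2.93 to 3.22, never reached the floor. The genotypes of the chosen probe sets did not overlap for 8 of the 10 members, which compares with 33.6% of all genes tested. Nt5e counts among the 8 only by 4.1475 in Gata3-/- replicate 2 against 4.1488 in Gata3+/- replicate 3, both near the floor. Nothing about the family is read from that count, since the members were named with these results known.

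The label of the cells was checked first. Of 12 T-lineage marker genes 11 were named on the array, and all 11 never reached the floor on any array, Cd3e, Bcl11b, Rag1 and Il2ra among them. Of 11 macrophage and microglia markers named on the array 10 were tested. The microglial transcription factor gene Sall1 averaged 3.33 ± 0.04 in Gata3-/- arrays and 3.84 ± 0.72 in Gata3+/- arrays and was the one not tested. Csf1r averaged 14.33 ± 0.08 in Gata3-/- arrays and 14.55 ± 0.05 in Gata3+/- arrays (SD, n = 3 each). The targeted gene did not separate the genotypes, since the Gata3 probe set read 5.87, 6.44 and 5.48 in Gata3-/- arrays and 5.39, 6.40 and 5.86 in Gata3+/- arrays. It may lie outside the disrupted part of the gene and is therefore no check of the genotypes, for which the labels are relied on. Across all tested probe sets, arrays correlated by 0.974 to 0.990 within a genotype and by 0.956 to 0.982 between genotypes.

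The mean levels of 4 of 11 marker lists did not overlap between the genotypes. Among single genes tested the share was 33.6%, so the count of lists by itself shows no excess. The mean level of 11 macrophage and microglia markers ran from 9.01 to 9.61 in Gata3-/- arrays, against 9.87 to 10.45 in Gata3+/- arrays, and their summed intensity from 45574 to 48206 against 59678 to 62619. Of 10 tested genes in that list 3 fell (Cx3cr1, Fcgr1 and Fcrls) and 0 rose, with 8 differences negative and 2 positive. The positive ones were Cd68, with 0.53 (adjusted p = 0.0541), and Mertk, with 0.16 (adjusted p = 0.737). Cd68 averaged 12.72 ± 0.08 in Gata3-/- arrays and 12.20 ± 0.16 in Gata3+/- arrays. The mean level of 7 conventional dendritic cell markers ran from 8.89 to 9.25 in Gata3-/- arrays, against 7.74 to 8.41 in Gata3+/- arrays, and their summed intensity from 31089 to 41954 against 6695 to 14977. Of 6 tested genes in that list 2 rose (Zbtb46 and Cd83), 0 fell, and Xcr1 never reached the floor. Ccr7 averaged 14.64 ± 0.25 in Gata3-/- arrays and 12.22 ± 1.39 in Gata3+/- arrays and did not pass (adjusted p = 0.108), nor did Batf3, with a difference of -0.78 (adjusted p = 0.0759). The mean level of 6 plasmacytoid dendritic cell markers ran from 8.25 to 8.46 in Gata3-/- arrays, against 8.77 to 8.86 in Gata3+/- arrays, their summed intensity from 14351 to 16213 against 18662 to 20271, with 2 of 5 tested genes lower (Siglech and Irf8) and Ccr9 under the floor throughout. Spib of that list had the opposite sign, with a difference of 2.74 (adjusted p = 0.0652), and did not pass. Its mean was 7.60 ± 0.39 for Gata3-/-, against 4.86 ± 1.18 for Gata3+/-. The mean level of 7 B-lineage markers ran from 3.79 to 3.86 against 3.87 to 3.99, with 5 of the 7, Pax5 and Cd79a among them, under the floor on all arrays. A summed intensity weighs most on the brightest genes of a list. By mean these were Csf1r, Ccr7 and Bst2 for the macrophage, conventional and plasmacytoid lists, and none of the named genes passed. Since every array holds RNA of many sorted cells together, fewer cells of a type and less RNA per cell cannot be told apart. The part of these markers in the results below was not tested.

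**Figure D2:**
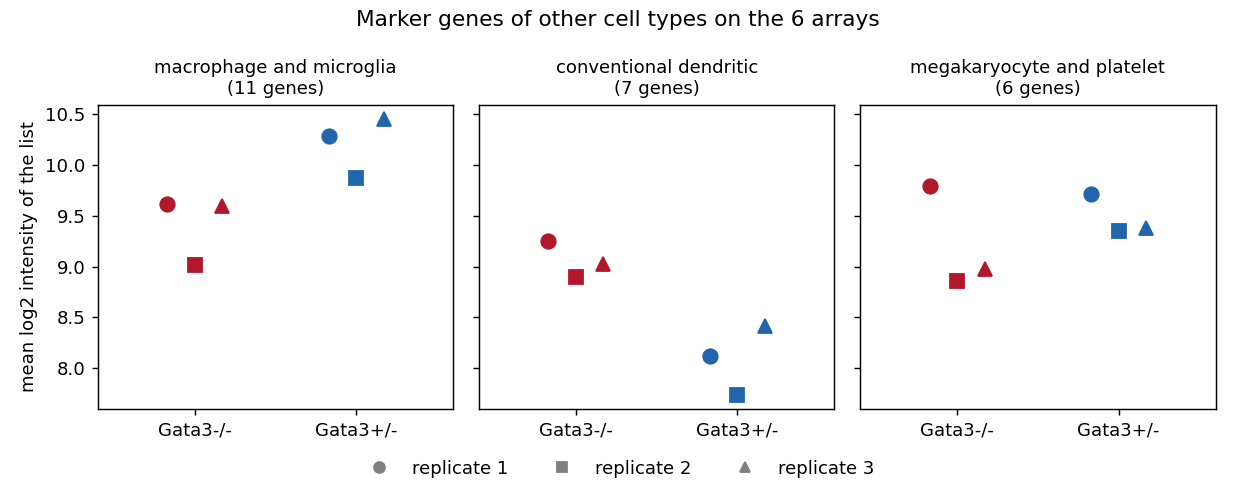
Mean log2 intensity (y axis) of 3 lists of marker genes on each array, Gata3-/- in red on the left and Gata3+/- in blue on the right, with symbols for the replicate number. The macrophage and the dendritic lists do not overlap between genotypes, in opposite directions, and in the platelet list Gata3-/- replicate 1 stands at 9.79, above the 8.86 and 8.98 of the other Gata3-/- arrays.

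The windows around the annotated start sites of the 3 called genes are shown for reference, and binding of GATA factors to them was not tested. Sequences are from RefSeq on GRCm38.p6, 250 bases before to 50 after the start site, 5′ to 3′ on the gene's strand, and the most upstream start site of each gene is printed. Capitals mark matches on either strand to AGATAA or TGATAA (forms of the GATA site), GAGGAA (the core of the PU.1 site) or TGACTCA (the AP-1 site). P2ry10 is at chrX:107088242-107088541 on the plus strand, P2ry14 at chr3:59153443-59153742 on the minus strand and P2rx7 at chr5:122643677-122643976 on the plus strand.
P2ry10: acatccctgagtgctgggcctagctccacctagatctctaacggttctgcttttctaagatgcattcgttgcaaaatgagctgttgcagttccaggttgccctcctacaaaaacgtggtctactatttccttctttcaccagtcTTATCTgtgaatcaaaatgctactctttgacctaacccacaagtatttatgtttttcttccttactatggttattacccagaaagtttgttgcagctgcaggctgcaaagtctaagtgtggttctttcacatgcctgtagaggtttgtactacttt
P2ry14: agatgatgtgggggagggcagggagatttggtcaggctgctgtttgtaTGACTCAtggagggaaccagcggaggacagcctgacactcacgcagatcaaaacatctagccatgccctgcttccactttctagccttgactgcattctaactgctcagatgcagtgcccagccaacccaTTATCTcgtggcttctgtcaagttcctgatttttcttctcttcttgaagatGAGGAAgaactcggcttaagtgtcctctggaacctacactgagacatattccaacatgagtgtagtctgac
P2rx7: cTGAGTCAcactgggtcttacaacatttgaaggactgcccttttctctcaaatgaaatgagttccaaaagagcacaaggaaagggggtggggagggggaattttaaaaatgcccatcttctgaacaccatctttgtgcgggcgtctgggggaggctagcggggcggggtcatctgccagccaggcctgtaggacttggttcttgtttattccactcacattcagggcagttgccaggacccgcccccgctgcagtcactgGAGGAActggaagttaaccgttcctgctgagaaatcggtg
The P2ry10 window held AGATAA once on the reverse strand, the P2ry14 window held AGATAA as well as GAGGAA and TGACTCA, and the P2rx7 window held GAGGAA and TGACTCA. Of all 32851 windows of the same length in the table, 11.2% held AGATAA, 9.05% TGATAA, 28.3% GAGGAA and 5.20% TGACTCA. Counting every annotated start site, AGATAA was found in 1 of 2 windows of P2ry10, 3 of 4 of P2ry14 and 1 of 2 of P2rx7. TGATAA was found in the other P2ry10 window and in no window of P2ry14 or P2rx7. GAGGAA was found in 1 of 2, 4 of 4 and 2 of 2 windows of P2ry10, P2ry14 and P2rx7. Of the 10 members 9 had windows in the table, and among the 7 windows of the uncalled members AGATAA and TGATAA were found in 0 and GAGGAA in 2. The 8 windows of the called members come from only 3 genes, 4 of them from P2ry14, and those genes were called on these same arrays. Called and uncalled members are therefore not compared by these counts. Windows of a gene can overlap, and a match is only a run of letters.

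Among the receptors, P2ry10 differed most. It read 10.83, 10.47 and 10.85 in Gata3-/- arrays, against 8.14, 7.10 and 8.56 in Gata3+/- arrays. The lowest Gata3-/- array lay well above the highest Gata3+/- array, and the Gata3+/- arrays spread more widely, with replicate 2 the lowest of each genotype. The means were 10.72 ± 0.21 in Gata3-/- arrays and 7.93 ± 0.75 in Gata3+/- arrays (SD, n = 3 each), a difference of 2.78 (SE 0.38, 95% interval 1.84 to 3.73, limma adjusted p = 0.0344). Leaving out each array in turn gave differences of 2.37 to 3.10, with adjusted p-values of 0.0673 to 0.111, so the call needed all 6 arrays.

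P2ry14 differed by less, but with little spread. It read 11.29, 11.24 and 11.22 in Gata3-/- arrays, against 10.55, 10.69 and 10.80 in Gata3+/- arrays. All Gata3-/- arrays lay above all Gata3+/- arrays. The difference was 0.57 (SE 0.09, 95% interval 0.36 to 0.79, adjusted p = 0.0363). Without any 1 array it was 0.51 to 0.63 with adjusted p-values of 0.0699 to 0.113, and with the replicate number as a block the adjusted p was 0.0669.

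P2rx7 was lower on both of its tested probe sets. The brighter one read 7.60, 7.52 and 7.62 in Gata3-/- arrays, against 8.36, 8.77 and 8.78 in Gata3+/- arrays. The Gata3-/- arrays were nearly alike and all below the Gata3+/- arrays. The difference was -1.05 (SE 0.13, 95% interval -1.38 to -0.72, adjusted p = 0.0312). The dimmer one read 6.53, 6.06 and 6.0 in Gata3-/- arrays, against 7.15, 7.28 and 7.64 in Gata3+/- arrays, a difference of -1.16 (SE 0.20, adjusted p = 0.0420). The remaining probe set stayed under the floor on every array. Without any 1 array the difference of the brighter probe set was -1.19 to -0.98, with adjusted p-values of 0.0716 to 0.105.

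**Figure D3:**
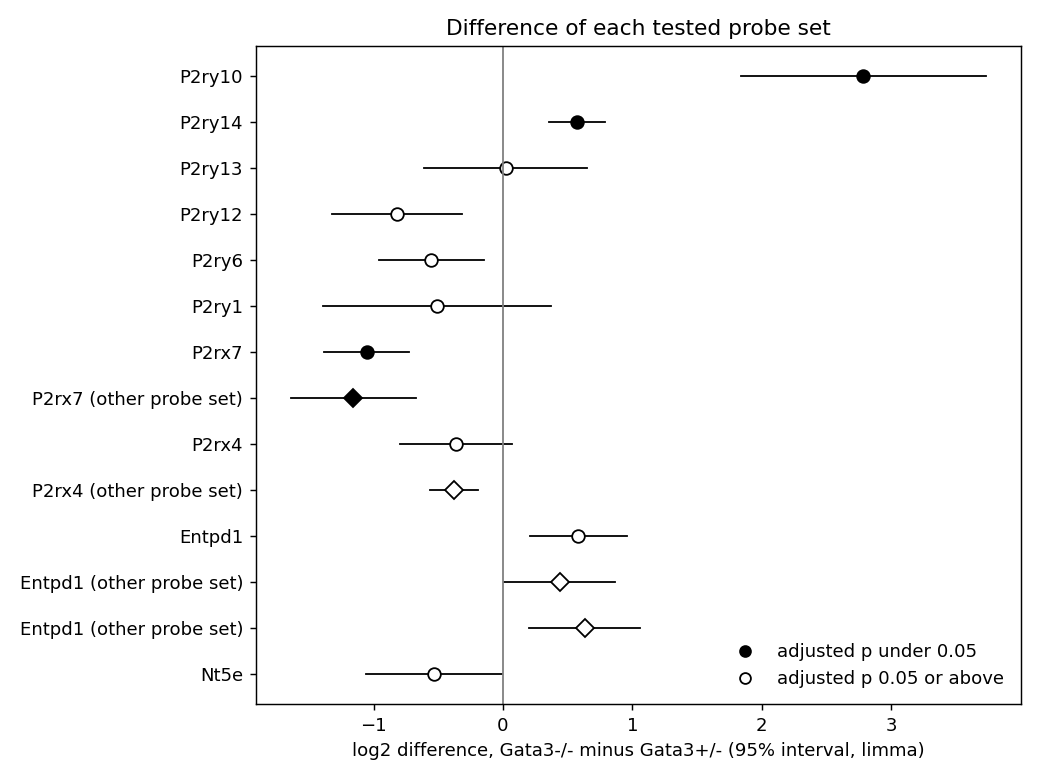
Log2 difference, Gata3-/- minus Gata3+/- (x axis), with its 95% interval from limma, for the 14 tested probe sets of the 10 genes (y axis); circles are the chosen probe sets, diamonds the others, and filled symbols have an adjusted p under 0.05. P2ry10 and P2ry14 and both probe sets of P2rx7 are filled, and all probe sets of a gene lie on the same side of 0.

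P2rx4, the other ATP-gated channel of the family and a neighbour of P2rx7 on chromosome 5, did not pass. It read 9.90, 9.67 and 9.87 in Gata3-/- arrays, against 9.98, 10.01 and 10.55 in Gata3+/- arrays, a difference of -0.36 (95% interval -0.80 to 0.07, adjusted p = 0.286). Gata3+/- replicate 3 was apart from the rest on this probe set, and without it the difference was -0.18 (adjusted p = 0.364). The second tested probe set read 9.72, 9.64 and 9.76 in Gata3-/- arrays, against 10.05, 10.04 and 10.17 in Gata3+/- arrays. It had a like difference of -0.38 with a narrower interval, -0.57 to -0.19, and stayed just above the threshold (adjusted p = 0.0559). The remaining 2 probe sets never reached the floor.

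P2ry12 and P2ry1 are the pair of ADP receptors through which platelets respond to ADP, and P2ry12 is also a marker of microglia. P2ry12 read 9.43, 8.71 and 8.94 in Gata3-/- arrays, against 10.001, 9.69 and 9.84 in Gata3+/- arrays. All Gata3-/- arrays lay below the Gata3+/- arrays, with a difference of -0.82 (SE 0.20, 95% interval -1.32 to -0.32) that did not pass (adjusted p = 0.0812). P2ry1 read 6.49, 5.36 and 5.48 in Gata3-/- arrays, against 6.74, 6.05 and 6.08 in Gata3+/- arrays. The genotypes overlapped, and replicate 1 was the highest array of each genotype. Its difference was -0.51 (95% interval -1.39 to 0.37, adjusted p = 0.458), and with 1 array left out it ran from -0.86 without Gata3-/- replicate 1 (adjusted p = 0.175) to -0.30 without Gata3-/- replicate 2 and -0.28 without Gata3+/- replicate 1 (adjusted p = 0.760).

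Replicate 1 also stood highest in the mean level of 6 megakaryocyte and platelet markers, which read 9.79, 8.86 and 8.98 in Gata3-/- arrays and 9.71, 9.35 and 9.38 in Gata3+/- arrays. The summed intensity of that list ran from 11852 to 22022 in Gata3-/- arrays and from 17377 to 21844 in Gata3+/- arrays. Pf4, a platelet chemokine, followed the same order and read 13.99, 13.13 and 13.35 in Gata3-/- arrays and 13.97, 13.60 and 13.76 in Gata3+/- arrays. Itga2b and Gp9 followed it too, while Ppbp, Treml1 and Gp6 did not in at least 1 genotype. Ppbp read 11.567, 11.571 and 11.121 in Gata3+/- arrays. All 5 tested genes of the list had negative differences and 0 passed in limma. Gp6 was not tested, and its means differed by 0.21. It reached the floor only on Gata3-/- replicate 1, at 4.38. No marker of the list was under the floor on all arrays. The part of these markers in the values of P2ry1 and P2ry12 was not tested.

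P2ry6, the receptor for UDP, through which microglia and macrophages are driven to phagocytosis, read 11.44, 10.84 and 10.99 in Gata3-/- arrays, against 11.62, 11.60 and 11.71 in Gata3+/- arrays. The Gata3+/- arrays were nearly alike, and all Gata3-/- arrays lay below them. The difference of -0.55 (95% interval -0.96 to -0.15) did not pass (adjusted p = 0.117), and with 1 array left out it ran from -0.73 without Gata3-/- replicate 1 (adjusted p = 0.0927) to -0.43 without Gata3-/- replicate 2 (adjusted p = 0.213). P2ry13, another receptor for ADP, read 9.21, 8.77 and 9.12 in Gata3-/- arrays, against 9.09, 8.52 and 9.43 in Gata3+/- arrays. The genotypes overlapped throughout, with a difference of 0.02 whose 95% interval ran from -0.61 to 0.65 (adjusted p = 0.974). A change within that interval, in either direction, is therefore not excluded by these arrays.

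The enzymes came next in the pathway. Entpd1 had 3 tested probe sets, and each was higher in all Gata3-/- arrays than in all Gata3+/- arrays. The brightest read 9.54, 9.55 and 9.90 in Gata3-/- arrays, against 9.02, 8.91 and 9.31 in Gata3+/- arrays. Its difference was 0.58 (SE 0.15, 95% interval 0.21 to 0.96, adjusted p = 0.0885), and those of the others were 0.63 (adjusted p = 0.0997) and 0.44 (adjusted p = 0.208), so none passed. With weights for array quality the brightest passed (difference 0.65, adjusted p = 0.0366), as did P2ry12 (difference -0.85, adjusted p = 0.0421). Replicate 3 was the highest array of each genotype on all 3 probe sets. Nt5e, whose values are given above, had a difference of -0.53 (95% interval -1.06 to -0.004, adjusted p = 0.210). Values so near the floor carry little information on its level, and 4 of its 6 values reached the floor.

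Several of the receptor genes lie in groups on the chromosomes. P2ry14, P2ry13 and P2ry12 lie beside each other on chromosome 3 in that order, with the lymphoid receptor gene Gpr171 next to P2ry14. In that order from Gpr171 the differences were 0.34 (adjusted p = 0.192), 0.57, 0.02 and -0.82. Within each array, P2ry14 minus P2ry12 was 1.86, 2.53 and 2.28 in Gata3-/- arrays, against 0.55, 1.00 and 0.95 in Gata3+/- arrays, a change of 1.39. P2rx7 minus P2rx4 changed by -0.69, and P2ry10 minus its paralogue and neighbour P2ry10b on chromosome X by 2.91. For each of these 3 pairs the genotypes did not overlap, and the exact permutation test (two-sided, n = 3 each) gave p = 0.1, also after adjustment over the 3 pairs, which is the smallest p it can give. The pairs were picked after their values were seen.

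P2ry10b itself averaged 9.27 ± 0.08 in Gata3-/- arrays and 9.40 ± 0.09 in Gata3+/- arrays (SD, n = 3 each). Gpr174, the next gene and a further receptor for lysophosphatidylserine, read 6.47, 8.82 and 7.85 in Gata3-/- arrays, against 6.36, 7.19 and 6.54 in Gata3+/- arrays. It varied widely among the Gata3-/- arrays, and its difference of 1.02 did not pass (adjusted p = 0.383). Of 15 genes within 3 places of a called member, members left out, 11 were tested, 0 passed in limma and 3 had an unadjusted p under 0.05. Their differences ran from -0.33 for Atp2a2, a calcium pump gene near P2rx7 (adjusted p = 0.0534), to 1.02 for Gpr174. All 5 tested neighbours of P2rx7 had negative differences, from -0.33 to -0.19, smaller than that of P2rx7 itself.

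**Figure D4:**
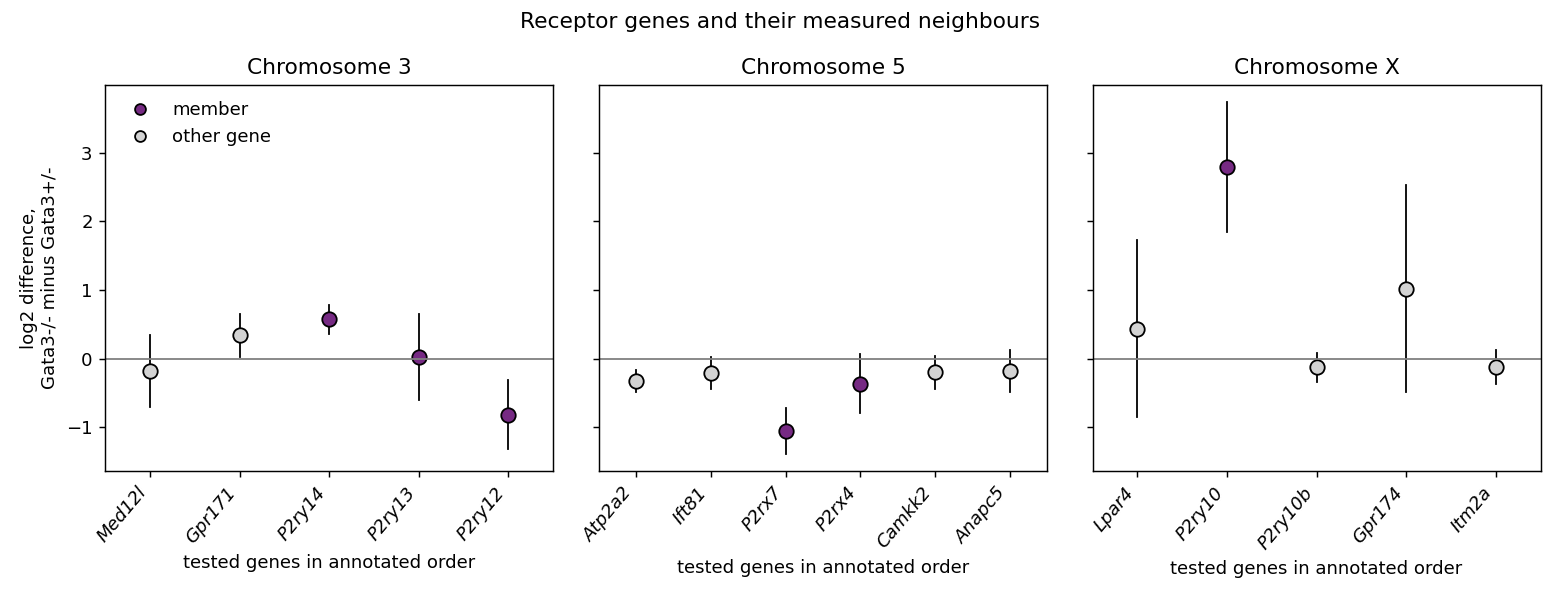
Log2 difference, Gata3-/- minus Gata3+/- (y axis, bars are 95% intervals from limma), of the tested genes around P2ry14, P2rx7 and P2ry10 in the order of the annotation (x axis, not to scale; untested genes are left out); members are purple and other genes grey. P2ry14 at 0.57 and P2ry12 at -0.82 lie on opposite sides of 0, and P2ry10 at 2.78 lies apart from P2ry10b at -0.13.

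Other genes of purinergic signalling were listed by role, 43 in 7 lists, of which 36 were named on the array and 24 tested. In all, 1 rose and 1 fell, which at 8.33% of those tested is near the 5.27% of all genes, and their median difference was 0.14. Both called genes are in the list of inflammasome genes downstream of P2rx7, which is known to activate that complex. Pycard, which encodes the adaptor ASC, read 12.44, 12.37 and 12.33 in Gata3-/- arrays, against 13.06, 13.10 and 12.88 in Gata3+/- arrays, and fell by 0.63 (SE 0.09, adjusted p = 0.0344). Il18, a cytokine processed by the inflammasome, read 11.76, 11.40 and 11.58 in Gata3-/- arrays, against 10.61, 10.82 and 10.95 in Gata3+/- arrays, and rose by 0.79 (SE 0.14, adjusted p = 0.0428). The genotypes overlapped for neither gene. The other 4 genes of that list did not pass, Il1b among them with a difference of 0.91 (adjusted p = 0.150), Nlrp3 with 0.23, Casp1 with 0.12 and Gsdmd with -0.06.

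None of the other 6 lists held a called gene. Of 7 further nucleotide receptors 2 were tested, the ATP-gated channel gene P2rx1 with a difference of -0.41 (adjusted p = 0.236) and P2ry2, the receptor for ATP and UTP, while P2rx2, P2rx3, P2rx6 and P2ry4 never reached the floor. Among 4 tested receptors related to the P2ry family, Gpr171 had the smallest p and Gpr34, a microglial receptor, had a difference of -0.09. The adenosine receptor gene Adora3 averaged 6.63 ± 0.38 in Gata3-/- arrays and 7.02 ± 0.31 in Gata3+/- arrays (SD, n = 3 each, adjusted p = 0.404), and the other adenosine receptors were not analysed here. Of 9 further enzymes named on the array 3 were tested, Entpd6 among them with a difference of -0.22 (adjusted p = 0.161), and 6 never reached the floor, Entpd2, Entpd3 and Alpl among them. Of 6 tested genes that remove or carry adenosine, Dpp4, the surface protein that binds adenosine deaminase, had a difference of 0.65 (adjusted p = 0.115) and Ada, the deaminase itself, of 0.57 (adjusted p = 0.231). Panx1, a channel that releases ATP, had a difference of 0.15 (adjusted p = 0.374).

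The genes with the most similar pattern over the 6 arrays were sought for each called member, as the smallest root mean square difference between log2 profiles centred on their own means, among all genes tested. This distance is set mainly by the difference between genotypes. For P2ry10 they were Nostrin (0.256), the glycosyltransferase gene B3gnt5 (0.258) and Socs2, an inhibitor of cytokine signalling (0.258), where P2ry10 itself varied by 1.46 around its mean. For P2ry14 they were Gnb4, a G protein beta subunit (0.0395), Dcaf1 (0.0484) and the helicase gene Ddx52 (0.0540), against a variation of 0.295 for P2ry14. For P2rx7 they were Cds1, an enzyme of phospholipid synthesis (0.0793), Socs4 (0.0822) and C130050O18Rik (0.0828), against 0.546 for P2rx7.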

How the data were processed

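The series holds 6 Affymetrix arrays, 3 Gata3-/- and 3 Gata3+/-, grouped by their titles. The deposited values are linear intensities for 45101 probe sets, made by the authors with GC-RMA per the labels, which corrects background and normalizes between arrays. GCOS is named in the submitters' processing notes, and its settings were not stated. Array medians lay between 8.57 and 8.93 as linear intensities, not log2 values, and so under the floor intensity of 16. Per array, 19977 to 20124 probe sets reached the floor. The number of arrays limits the precision.

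Log2 was taken with no further normalization and 64 control probe sets were left out. Probe sets at a log2 value of 4 (intensity 16) or above on at least 3 arrays were tested (20102). Genes are the tested probe sets with 1 symbol and the highest mean. Differences were fitted with limma 3.58.1 in R 4.3.3 (two-sided, Benjamini-Hochberg over all tested probe sets). The procedure was also run on simulated data with independent noise on each array, which does not cover deviations shared between arrays. All 10 members matched a RefSeq gene table of GRCm38.p6, used for gene order. No other gene coordinates are given, because the deposited values name no build. The members and gene lists were chosen with earlier results of these data known. Named were all members, called genes of the wider lists or else the smallest p of a list, neighbours of called members, and the 3 genes nearest in pattern. Other genes are examples chosen after their values were seen. Alternatives were other filters, scalings, variance models, array weights, the replicate block, averaged or other probe sets, fewer chromosomes, and arrays left out. Plots used matplotlib 3.10.9 in Python 3.11.15.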

Additional observations from a re-analysis of the deposited data

How the results depend on the processing

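Counts of called genes, members and genes of the wider lists were 543, 3 and 2. They were 1224, 5 and 2 with array weights, 98, 0 and 0 with no filter, 824, 3 and 2 with trend and robust eBayes, 731, 3 and 1 with averaged probe sets and 229, 3 and 1 without chromosomes 6, 11, 14 and Y, none of which holds a member. Those 229 were 2.68% of 8554 genes, 93 higher and 136 lower, against 5.27% of 10302 genes, 295 higher and 248 lower. The share of all genes called thus depends on the chromosomes included, and the reason was not tested. Without both arrays numbered 2, chosen after seeing the data, they were 3, 0 and 0. With 1 array left out they were 0 to 4 genes, 0 to 0 members and 0 to 0 wider genes in limma, while 5 to 7 of the 10 members had an unadjusted p under 0.05, beside 2043 to 2484 of all 10302 genes. That count was 6 beside 3007 of 18193 genes with no filter, and 6 beside 2037 genes without both arrays numbered 2. These fits hold fewer arrays or more probe sets. With the replicate block the counts were 298, 2 and 0, and P2ry14 lost its call. P2ry10 and P2rx7 kept theirs in that limma fit, with larger adjusted p-values of 0.0431 and 0.0478. No uncalled member passed in it. Their adjusted p-values included 0.0528 for Entpd1, 0.0539 for P2ry12 and 0.100 for P2ry1, lower than without the block, and 0.122 for P2ry6, higher. Deviations from the genotype means correlated by 0.005, 0.695 and 0.429 for numbers 1, 2 and 3, and by -0.618 to 0.424 between arrays of different numbers. Number 1 was not over 0.1, so the numbers were not taken as pairs, which leaves unknown whether the arrays were paired. P2ry13 changed sign without Gata3+/- replicate 2 (-0.22), Gata3-/- replicate 1 (-0.07), Gata3-/- replicate 3 (-0.02) or both arrays numbered 2 (-0.0945), over a range of -0.22 to 0.23 with 1 array left out, and was never called. No other member changed sign in 163 combinations of member and setting, of which 132 kept direction and call, 25 lost the call and 2 gained it. Only the 3 called members had a call to lose, and most of the 132 are uncalled members that stayed uncalled. P2ry10 kept its call in 8 of 16 settings, P2ry14 in 7 of 16 and P2rx7 in 9 of 17. Values near the floor limit Nt5e. Quantile normalization, median centring and the stricter filter at 6 kept the 3 members called.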
